A study of Gallus gallus with 30 samples.

Results

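Glycolysis splits glucose into pyruvate in the cytosol and yields ATP without oxygen, and glycogen is the store from which a muscle fibre draws the sugar phosphate that enters it. The chicken breast muscle, Pectoralis major, is made almost wholly of fast fibres in the adult bird and is known for a high capacity for both pathways. Lactate dehydrogenase turns the pyruvate into lactate, monocarboxylate carriers move the lactate across the membrane, and the glycerol phosphate shuttle passes electrons from cytosolic NADH to the mitochondria.

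The genes described here are those of glycolysis and glycogen metabolism. The list named 43 gene symbols, and 36 of them matched a gene symbol of the Affymetrix Chicken Genome Array, out of 13009 genes with a symbol of their own there. Where several probe sets carried the same symbol, as for 17 of the 36 genes, the one with the highest mean over the 30 arrays was taken. The 36 genes comprised 3 transporters, 8 genes of upper glycolysis, 6 of lower glycolysis, 5 regulatory genes, 7 of glycogen synthesis, 5 of glycogen breakdown and 2 of the glycerol phosphate shuttle. The symbols SLC2A3, PGK1, PKM, PKM2, ENO3, PFKFB4 and GYS1 did not match and are not counted. RefSeq gives the first 4 of these as synonyms of genes that the platform calls SLC2A14, PGK2 and PKLR. The match by synonym was made after the data were seen, and these 3 genes are given apart from the 36.

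Broilers were commercial Arbor Acres, bred for meat, and layers were White Leghorn, bred for eggs. All birds were male, received the same commercial layer diet and were housed alike. Muscle was sampled on the day after hatch (1 d) and in 4 later weeks of age, written 2 w, 4 w, 6 w and 8 w. Each line and age is represented by a pooled RNA of 5 birds read on 3 arrays, and there were 10 such pools, 5 of each line. An SD over the 3 arrays of a pool measures technical error only, and with 1 pool of each line at a single age the spread between pools of an age was not measured. Apart from the summed signals of marker lists, which are linear, all values are the log2 signals deposited by the authors. Differences between groups are differences on that scale, and no signal is set against that of another gene.

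Of 6 fast muscle genes, ACTA1 and TNNI2 were bright in all 10 pools, from 13.66 to 13.79 and from 13.04 to 13.51. As a list the 6 genes were brighter in the broiler pool at each age, with values given below. Some layer pools stood apart in other tissue markers. In the layer pool at 1 d cartilage genes were high, with MATN3 at 6.76 and COL9A3 at 6.25 against at most 3.52 and 3.36 in the other pools. In the layer pool at 4 w the slow muscle genes MYL3 and MYH7B stood at 7.13 and 7.90, against at most 3.17 and 4.64 in the other pools from 2 w on. The mean log2 signal of 6 slow muscle genes was 8.29 in that pool and 6.42 in the layer pool at 6 w. In the other pools from 2 w on it lay between 5.80 and 6.02. In the layer pool at 6 w, 1 of the 3 arrays was low for several of the genes described here, and GPD1 read 11.45, 11.40 and 9.72 on these arrays. The differences between the lines at 1 d, 4 w and 6 w rest on these pools themselves.

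Most of the 36 genes changed after hatch. Averaged over the lines, 21 of the 36 genes were higher at 2 w to 8 w than at 1 d and 9 were lower (limma with Benjamini-Hochberg adjustment over 38439 probe sets, threshold 0.05). Over all probe sets 17.1% were called higher and 17.9% lower in this comparison. Of the 36 genes 22 lay in the brightest 10% of probe sets. Among probe sets at or above the median brightness, tested alone, 22.7% were called higher and 26.8% lower. The 9 of 36 genes that fell are near that share. The median change of the 36 genes was 0.59 on the log2 scale, against 0.05 over all probe sets. HK2, PFKL, PFKP, ENO2, PPP1R3C and PYGL did not pass the threshold. Without the layer pool at 1 d 19 genes were called higher and 4 lower, beside 7.54% and 12.4% of all probe sets. Without the broiler pool at 1 d the counts were 19 and 8, beside 8.54% and 13.3%. Without the layer pool at 4 w they were 21 and 8, beside 14.1% and 16.5%, and without that at 6 w 22 and 9, beside 15.6% and 17.2%.

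**Figure D1:**
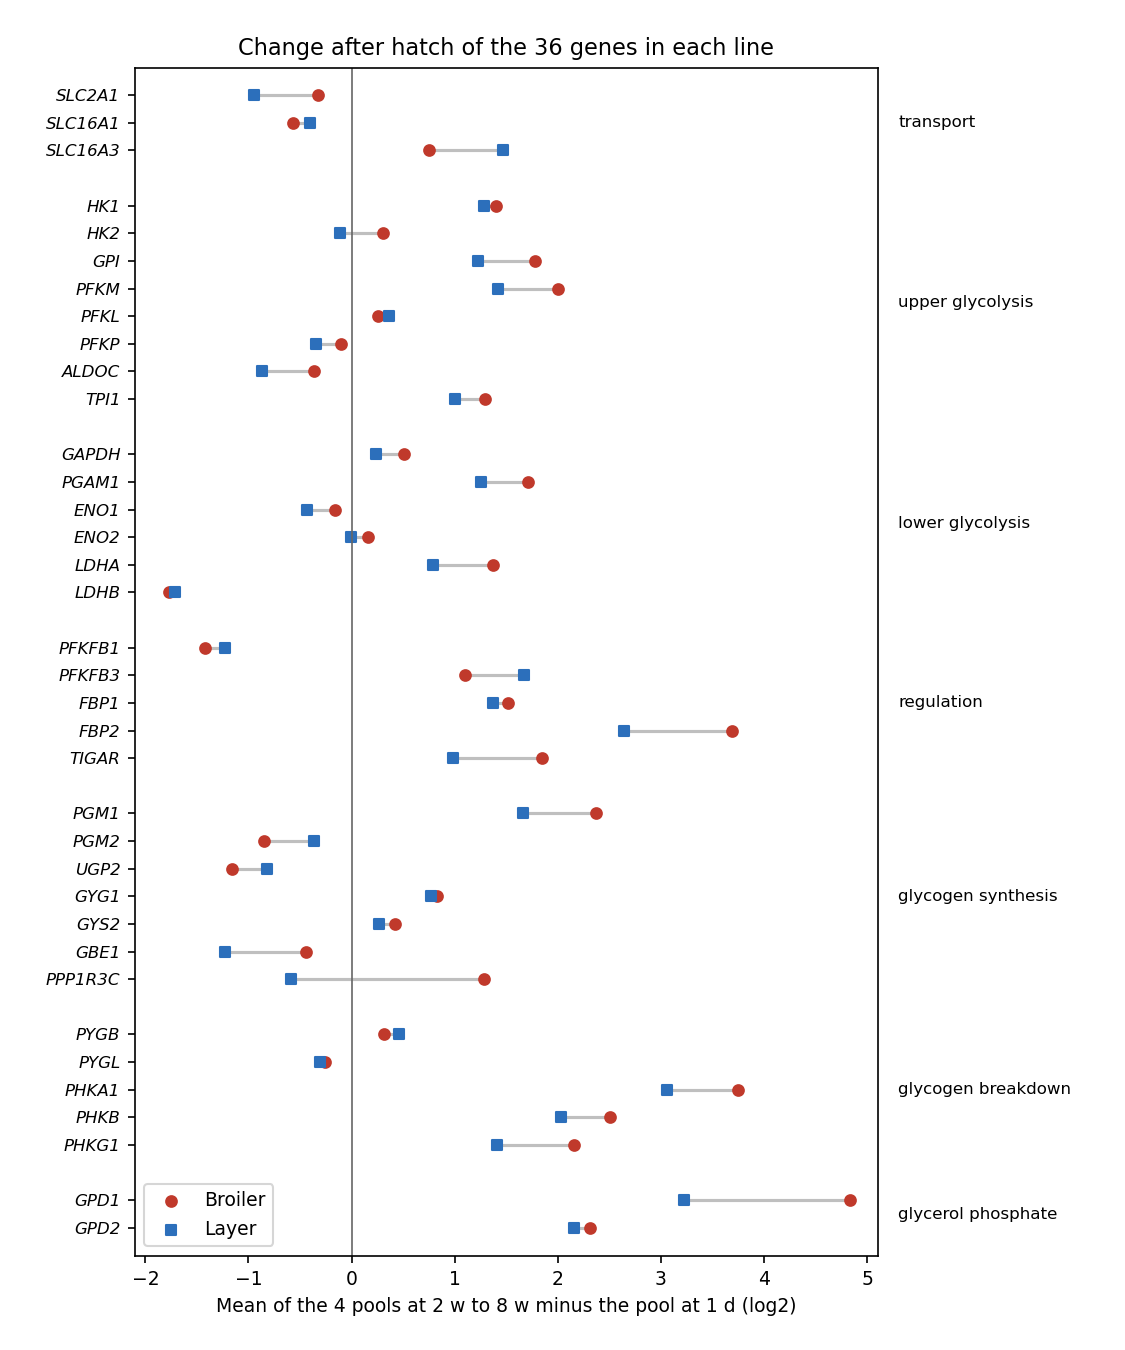
Change after hatch of each of the 36 genes in broilers (circles) and layers (squares), as the mean log2 signal of the 4 pools at 2 w to 8 w minus that of the pool at 1 d of the same line, with the genes grouped by role. GPD1, PHKA1 and FBP2 lie farthest to the right and LDHB farthest to the left, and for most genes that rose the circle lies to the right of the square.

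The glycerol phosphate shuttle showed the largest rise. GPD1 encodes the cytosolic enzyme, which reduces dihydroxyacetone phosphate with NADH. In broilers it stood at 6.49 ± 0.29 (SD, 3 arrays) at 1 d and at 11.35, 11.47, 11.20 and 11.26 at 2 w, 4 w, 6 w and 8 w. In layers it stood at 8.08 ± 0.12 at 1 d and at 11.36, 11.62, 10.86 and 11.37 later. The 8 later pools did not overlap with the 2 pools at 1 d, and the rise was 4.03 ± 0.29 (SE, adjusted p = 1.24e-05, limma), which was 28.6-fold in broilers and 9.36-fold in layers. GPD2, the mitochondrial enzyme of the shuttle, rose from 7.13 to between 9.01 and 9.66 in broilers and from 7.40 to between 9.43 and 9.75 in layers, by 2.23 ± 0.14 on average (adjusted p = 6.01e-06, limma).

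In glycogen breakdown the 3 subunits of phosphorylase kinase on the list rose together. This kinase switches glycogen phosphorylase on in response to calcium and hormones. PHKA1, its regulatory alpha subunit of muscle, stood at 6.29 in broilers and 7.05 in layers at 1 d and between 9.81 and 10.44 in the 8 later pools. PHKB, the beta subunit, stood at 8.52 and 9.05 at 1 d and between 10.85 and 11.19 later. PHKG1, the catalytic gamma subunit of muscle, stood at 9.63 and 10.51 at 1 d and between 11.72 and 11.95 later. The pools at 1 d lay below every later pool for all 3 genes, and the rises were 3.40 ± 0.16, 2.27 ± 0.12 and 1.79 ± 0.14 in that order (SE, adjusted p = 1.51e-06, 2.71e-06 and 2.56e-05, limma).

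The phosphorylases measured were those named for brain and liver. PYGB, the brain form, lay between 5.43 and 5.59 at 1 d and between 5.71 and 6.22 later, a rise of 0.39 ± 0.10 (SE, adjusted p = 0.0123, limma). A second PYGB probe set of nearly the same brightness fell by 0.44 on the log2 scale (adjusted p = 0.0322, limma), and the mean of the 3 PYGB probe sets changed by -0.01, so no direction holds for this gene. PYGL, the liver form, lay between 5.80 and 5.83 at 1 d and between 5.44 and 5.83 later and did not pass the threshold.

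Glycogen synthesis was split, with 3 genes called higher, 3 called lower and PPP1R3C not called. PGM1, the phosphoglucomutase that stands at the branch between glycogen and glycolysis, rose by 2.02 ± 0.13 (SE, adjusted p = 8.72e-06, limma). It stood at 10.52 in broilers and 11.20 in layers at 1 d and between 12.80 and 12.92 in all later pools. GYG1, glycogenin, the protein primer of the glycogen particle, rose by 0.80 ± 0.10 (adjusted p = 0.000385, limma). Of its 4 probe sets 3 rose, and the dimmest fell by 0.59 on the log2 scale. GYS2, the liver form of glycogen synthase, lay between 3.29 and 3.38 at 1 d and between 3.57 and 3.87 later, a difference of 0.35 ± 0.08 (adjusted p = 0.0108, limma). All of its pools lay below the lowest array median of 4.08, whether it was above background was not tested, and without the broiler pool at 1 d it was not called (0.27, adjusted p = 0.131).

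The 3 genes of this group that fell were UGP2, GBE1 and PGM2. UGP2, which makes the UDP-glucose that feeds the growing chain, stood at 12.19 and 12.26 at 1 d in broilers and layers and between 10.78 and 11.53 later, and it fell by 0.99 on the log2 scale (SE 0.12, adjusted p = 0.000235, limma). Its second, dim probe set was not called (0.06, adjusted p = 0.658), and the mean of both fell by 0.46. GBE1, the branching enzyme, fell by 0.83 (SE 0.18, adjusted p = 0.00634, limma). GBE1 read 6.81 at 1 d and 6.83 ± 0.59 (SD, 3 arrays) at 2 w in broilers, and 7.45 and 6.48 in layers. Without the layer pool at 1 d GBE1 was not called (-0.44, adjusted p = 0.125, limma). PGM2, a relative of PGM1, fell by 0.60 (SE 0.14, adjusted p = 0.0107, limma), a call that was lost without the broiler pool at 1 d (-0.36, adjusted p = 0.171) and without array number 1 (-0.47, adjusted p = 0.0590).

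In upper glycolysis HK1, GPI, PFKM and TPI1 rose and ALDOC fell. PFKM, the muscle form of phosphofructokinase, which catalyses the committed step, stood at 11.10 in broilers and 11.66 in layers at 1 d and between 13.03 and 13.20 in the later pools. Its rise was 1.71 ± 0.12 (SE, adjusted p = 1.04e-05, limma). PFKL, the liver form, lay between 3.37 and 3.89 in all 10 pools, which is below the lowest array median, and PFKP, the platelet form, between 6.87 and 7.67, and neither passed the threshold. The probe set given to PFKL bears the same cluster number as 1 of the PFKM probe sets, and which transcript it measured was not tested.

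GPI, which turns glucose phosphate into fructose phosphate, rose by 1.502 ± 0.11 (SE, adjusted p = 1.73e-05, limma). TPI1, which interconverts the triose phosphates, rose by 1.15 ± 0.08 (adjusted p = 1.07e-05, limma). HK1, a hexokinase that traps glucose in the cell, stood at 7.88 and 7.90 at 1 d and between 9.08 and 9.32 later, a rise of 1.34 ± 0.10 (adjusted p = 1.51e-05, limma). HK2, the hexokinase known for its response to insulin in mammalian muscle, lay between 5.89 and 6.43 in all pools, with the pools at 1 d at 5.89 and 6.40. ALDOC, the aldolase form named for brain, fell by 0.61 on the log2 scale (SE 0.13, adjusted p = 0.00597, limma), and not past the threshold without the layer pool at 1 d (-0.36, adjusted p = 0.125).

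In lower glycolysis LDHA and LDHB moved in opposite directions. LDHA, the subunit that prevails in fast muscle, stood at 11.38 ± 0.38 (SD, 3 arrays) in broilers and 11.99 ± 0.12 in layers at 1 d, and between 12.66 and 12.83 in the later pools. LDHB, the subunit that prevails in heart, stood at 10.52 ± 0.17 and 10.39 ± 0.07 at 1 d, and between 8.55 and 8.90 later. Later pools did not overlap with those at 1 d for either gene. LDHA rose by 1.08 ± 0.12 (SE, adjusted p = 0.000137, limma), and LDHB fell by 1.74 on the log2 scale (SE 0.10, adjusted p = 4.21e-06, limma), which was 3.41-fold in broilers and 3.27-fold in layers.

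PGAM1, a phosphoglycerate mutase, rose by 1.48 ± 0.10 (SE, adjusted p = 1.08e-05, limma), from 11.19 and 11.64 at 1 d to between 12.79 and 12.95. GAPDH, often taken as a reference gene, rose by 0.37 ± 0.07 (adjusted p = 0.00387, limma), and was not called without the broiler pool at 1 d (0.24, adjusted p = 0.0573). It was among the brightest probe sets of the array already at 1 d, with 12.97 in broilers and 13.25 in layers, and reached at most 13.50. ENO1, the widespread form of enolase, fell by 0.30 on the log2 scale (SE 0.09, adjusted p = 0.0282, limma) and lost this call in 6 of 22 alternative settings, among them without the layer pool at 1 d (-0.16, adjusted p = 0.337). ENO2, the neuronal form, lay between 4.75 and 5.02 in all pools.

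The probe sets of the synonym matches moved with the group. PGK2, by its identifier the phosphoglycerate kinase also called PGK1, stood at 9.86 in broilers and 10.57 in layers at 1 d and between 12.79 and 12.91 later, a rise of 2.64 ± 0.13 (SE, adjusted p = 1.65e-06, limma). PKLR, by its identifier the pyruvate kinase also called PKM, rose by 1.32 ± 0.13 (adjusted p = 9.66e-05, limma). SLC2A14, by its identifier the glucose transporter also called SLC2A3, rose by 0.76 ± 0.13 (adjusted p = 0.00175, limma).

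Among the regulatory genes FBP2, FBP1, TIGAR and PFKFB3 rose and PFKFB1 fell. The muscle form of fructose bisphosphatase, FBP2, which runs against phosphofructokinase, stood at 8.11 ± 0.13 (SD, 3 arrays) in broilers and 9.02 ± 0.12 in layers at 1 d, and between 11.55 and 11.88 in the later pools. Its rise of 3.17 ± 0.19 (SE, adjusted p = 4.82e-06, limma) was 12.9-fold in broilers and 6.24-fold in layers. FBP1, the liver form, stood at 3.50 and 3.57 at 1 d and between 4.83 and 5.12 later, and rose by 1.44 ± 0.09 (adjusted p = 8.17e-06, limma). At 1 d its pools lay below the lowest array median of 4.08, and whether it was above background there was not tested.

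PFKFB1 and PFKFB3 encode enzymes that make and remove the sugar bisphosphate that activates phosphofructokinase. PFKFB1 fell by 1.32 on the log2 scale (SE 0.12, adjusted p = 5.82e-05, limma). It stood at 8.47 in broilers and 8.09 in layers at 1 d, between 6.99 and 7.48 at 2 w and between 6.79 and 6.94 from 4 w on. PFKFB3 rose by 1.39 ± 0.34 (SE, adjusted p = 0.0116, limma), a call that was lost without the layer pool at 1 d (adjusted p = 0.135), and its later pools of a line lay up to 2.48 apart. TIGAR, which in mammals lowers the same bisphosphate and slows glycolysis, rose by 1.42 ± 0.23 (adjusted p = 0.00143, limma).

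Of the transporters SLC16A3 rose and SLC2A1 and SLC16A1 fell. SLC16A3, also called MCT4, is the lactate carrier known for export from fast muscle, and it rose by 1.11 ± 0.26 (SE, adjusted p = 0.0104, limma). SLC2A1, the glucose transporter also called GLUT1, fell by 0.64 on the log2 scale (SE 0.19, adjusted p = 0.0272, limma), and SLC16A1, the carrier also called MCT1, by 0.48 (SE 0.12, adjusted p = 0.0141, limma). SLC2A1 lost its call in 4 of 22 alternative settings, among them without array number 1 (-0.47, adjusted p = 0.105, limma). The calls of SLC16A3 and SLC2A1 were lost without the layer pool at 1 d (adjusted p = 0.160 and 0.362, SLC2A1 then at -0.33), and SLC16A1 was not called without either pool at 1 d (adjusted p = 0.134 without the broiler pool and 0.0518 without the layer pool).

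The median change of the 36 genes from 1 d was 0.79, 0.75, 0.60 and 0.64 at 2 w, 4 w, 6 w and 8 w in broilers, and 0.30, 0.53, 0.75 and 0.63 in layers. For the 21 genes that rose, the median change from 1 d to 2 w was 1.74 in broilers and 1.29 in layers, and the median change from 1 d to the mean of the later pools was 1.71 and 1.37. Their range over the 4 later pools of a line had a median of 0.24 in both lines. Of the 9 genes that fell, SLC2A1 at 6 w and GBE1 at 2 w in broilers did not lie below the pool at 1 d of the line.

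**Figure D2:**
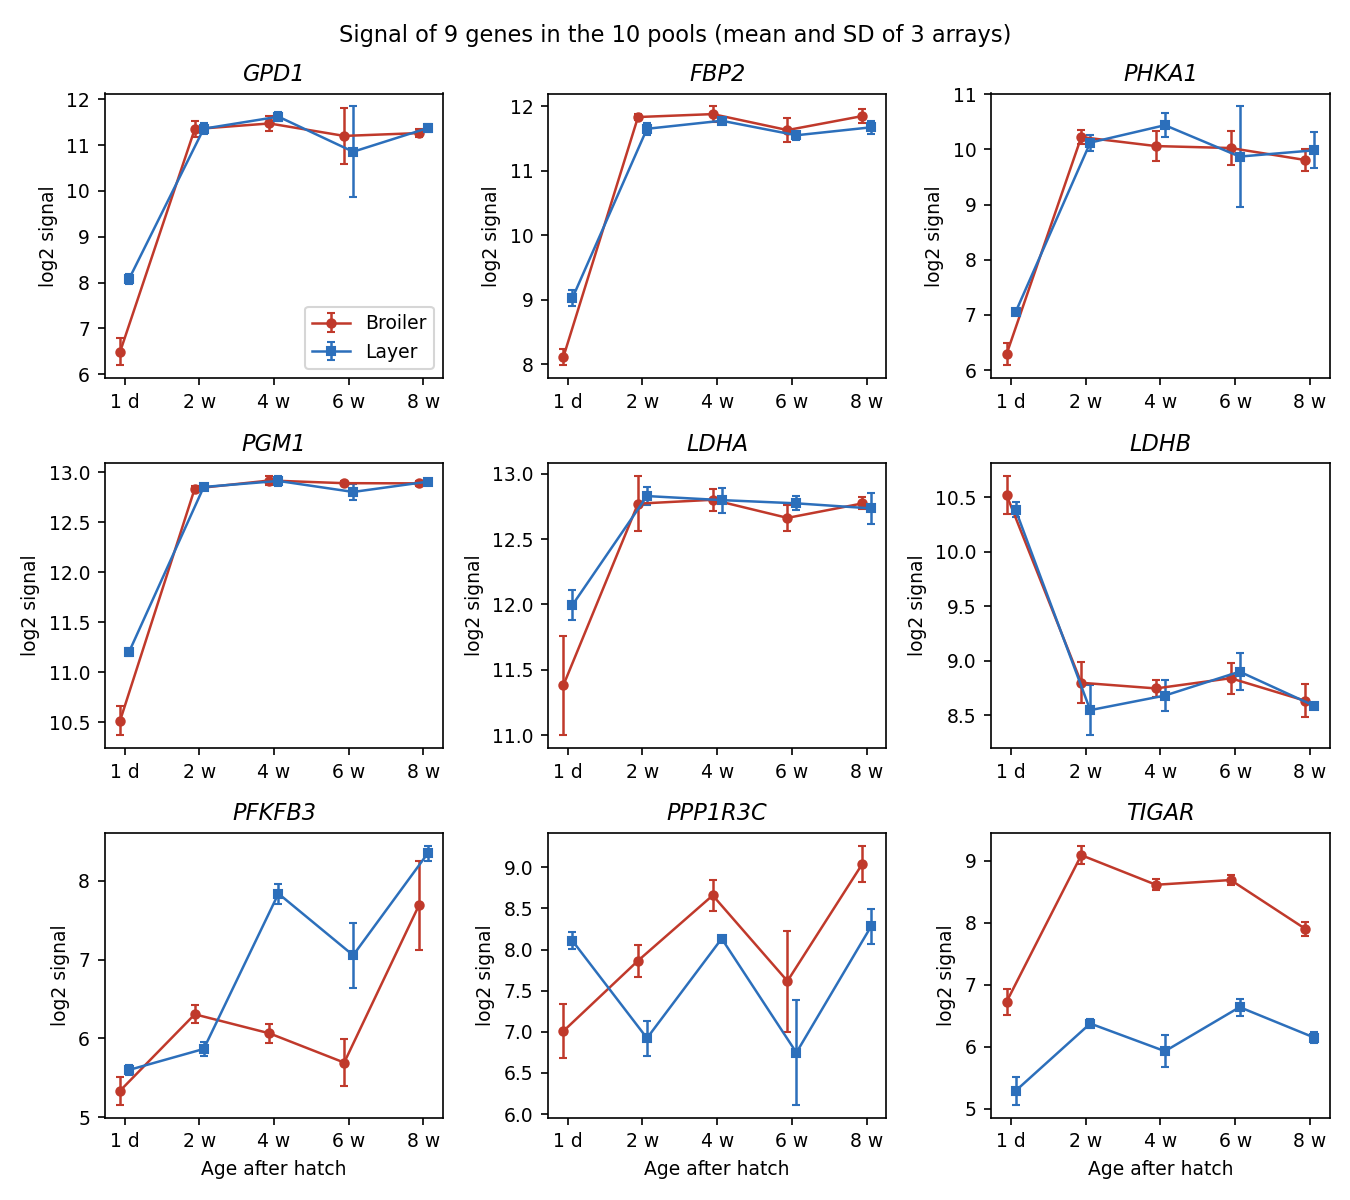
Signal of 9 genes (log2, vertical axis) in the 10 pools by age, with the mean and SD of the 3 arrays of each pool, broilers as circles and layers as squares. GPD1, FBP2, PHKA1, PGM1 and LDHA step up between 1 d and 2 w and then stay near a level that both lines share, LDHB steps down, PFKFB3 and PPP1R3C move from age to age, and TIGAR is higher in broilers throughout.

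A linear change from 2 w to 8 w was called for 0 of the 36 genes, with 4, or 11.1%, at an unadjusted p under 0.05 (limma), against 10.6% of all probe sets. Over all probe sets 0.198% were called to rise and 0.156% to fall over these ages. PFKFB3 had the largest slope, 0.26 ± 0.07 per week on the log2 scale (SE, adjusted p = 0.197, limma). The other slopes of largest size were 0.13 ± 0.07 for PPP1R3C, -0.12 ± 0.05 for SLC16A3, -0.09 ± 0.04 for GBE1, -0.09 ± 0.05 for TIGAR and -0.06 ± 0.03 for GPD2, with adjusted p between 0.395 and 0.559.

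Markers of other cells also changed between 1 d and the later ages. Summed signals are sums of the pool means of a list taken off the log2 scale, so the brightest genes weigh most. Of 7 fibroblast and matrix genes, 7 fell, and their summed signal went from between 29153 and 29396 at 1 d to between 14468 and 19524 in later broiler pools and between 16950 and 19385 in later layer pools. Of 6 immune genes 5 rose, of 6 proliferation genes 5 fell and of 4 Schwann cell and nerve genes 3 fell. The summed signals went from between 622 and 985 at 1 d to between 2154 and 4890 later for the immune list, from between 974 and 1362 to between 280 and 688 for proliferation, and from between 3174 and 3891 to between 518 and 1270 for nerve. Of 6 slow muscle genes TNNI1, MYL3 and ATP2A2 fell and TNNC1 rose, by 2.84 on the log2 scale. Their summed signal went from between 1779 and 2209 at 1 d to between 7456 and 8929 later, while their median change was -1.36 on the log2 scale. Their mean log2 signal went from 7.03 at 1 d to between 5.80 and 6.02 later in broilers. In layers it went from 7.43 to between 5.89 and 8.29. Of 4 erythrocyte genes 2 fell, with summed signals from between 4450 and 4662 at 1 d to between 1022 and 4197 later. Of 6 fast muscle genes 2 rose, with summed signals from 39887 to 43994 at 1 d and from 45717 to 51362 later. None of the marker probe sets stood at 0, and the part of these changes in the result was not tested. In bulk muscle, fewer cells of a type and less RNA per cell cannot be told apart.

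The size of a rise depended on the probe set for some genes. The 17 genes with several probe sets had 52 in all. All probe sets were called in the same direction for 8 genes, GYG1 and PYGB were called in both directions, and the other 7 had at least 1 probe set that was not called. The 3 probe sets of GPI rose by 1.502, 1.957 and 2.859 in order from the brightest to the dimmest, and the 2 of PFKM rose by 1.71 and 2.57. For other genes the probe set used moved most or nearly so. Those of GPD2 rose by between 0.23 and 2.23, those of PFKFB3 by between 0.13 and 1.39, and those of SLC16A3 changed by -0.01 and 1.11. Those of PFKFB1 ranged from -1.35 to 0.34, the rise not being called. Over the mean of all probe sets of a gene PFKFB3 rose by 0.72, SLC16A3 by 0.55 and GYG1 by 0.45, and PFKFB1 stood at -0.68, GBE1 at -0.46 and ENO1 at -0.51, all called (adjusted p at most 0.0131, limma). Of the 36 genes 14 lay in the brightest 1% of probe sets, and the highest signal on any array was 13.9. Whether the top of the scale held back the change of the brightest probe sets was not tested.

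**Figure D3:**
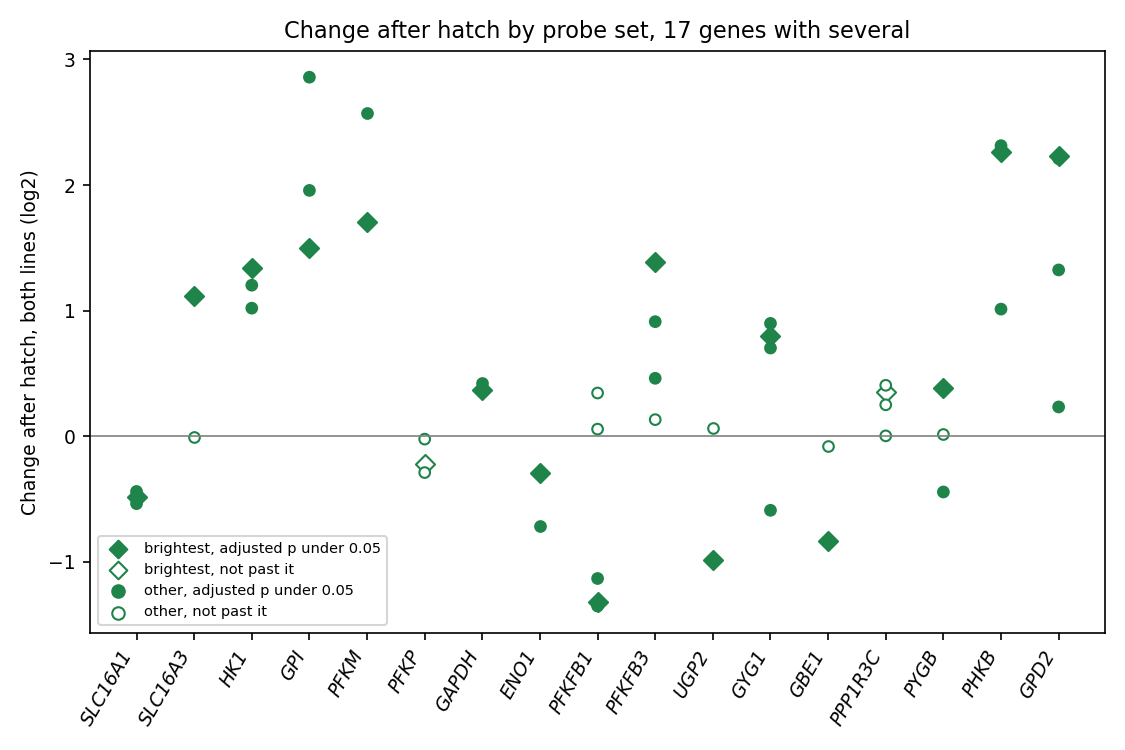
Change after hatch, averaged over the lines (log2), of each of the 52 probe sets of the 17 genes with several. Diamonds mark the brightest probe set of a gene, which was the one used, circles the others, and filled symbols an adjusted p under 0.05 by limma. GPI and PFKM have dimmer probe sets above the diamond, and GYG1 and PYGB have filled symbols on both sides of 0.

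Between the lines the 36 genes differed little on average. Over the 5 ages 1 of the 36 genes was called higher in broilers, TIGAR, and 0 were called lower (limma), while 7, or 19.4%, had an unadjusted p under 0.05, against 14.3% of all probe sets. Over all probe sets 0.63% were called higher in broilers and 0.723% lower. A dim PHKB probe set, with a mean of 3.71, was called lower in broilers (-0.65, adjusted p = 0.0262, limma). The brightest of that gene, which was the one used, was not (-0.16, adjusted p = 0.538, limma). The median difference, broiler minus layer, was -0.07 on the log2 scale for the 36 genes and 0.00 for all probe sets.

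In broilers TIGAR stood at 6.73 ± 0.21 (SD, 3 arrays) at 1 d, 9.09 ± 0.15 at 2 w, 8.61 ± 0.09 at 4 w, 8.69 ± 0.08 at 6 w and 7.90 ± 0.11 at 8 w. In layers it stood at 5.29 ± 0.23, 6.38 ± 0.07, 5.93 ± 0.26, 6.64 ± 0.14 and 6.15 ± 0.09 at the same ages. All 5 broiler pools lay above all 5 layer pools, the lowest broiler pool, at 1 d, being close to the highest layer pool, at 6 w. The difference was 2.13 ± 0.18 (SE, adjusted p = 0.00320, limma), a 4.37-fold higher signal in broilers, with single ages spanning 2.71-fold (1 d) to 6.56-fold (2 w). The call was kept in 22 of 23 alternative settings and was lost where age was left out of the model (adjusted p = 0.133). The gene had 1 probe set.

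The next largest differences did not pass the threshold. PFKFB3 was at -0.72 ± 0.27 (SE, adjusted p = 0.251, limma). PPP1R3C was at 0.40 ± 0.26 (adjusted p = 0.567), SLC16A1 at 0.39 ± 0.10 (adjusted p = 0.102), UGP2 at -0.34 ± 0.09 (adjusted p = 0.127) and PFKP at 0.33 ± 0.09 (adjusted p = 0.143), all from limma. Without the broiler or without the layer pool at 1 d PPP1R3C was also called, at 0.77. Over the mean of all probe sets of a gene these differences were smaller. PFKFB3 was then at -0.37, PPP1R3C at 0.24, SLC16A1 at 0.17, UGP2 at -0.15 and PFKP at 0.17 (adjusted p between 0.261 and 0.560, limma). The values by age that follow are those of the probe set used. SLC16A1, PFKP and PFKFB1 were higher in broilers and UGP2, PHKG1 and TPI1 lower in broilers at all 5 ages, so that with TIGAR 7 of the 36 genes kept the sign of the difference. Over all probe sets 13.0% did so.

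**Figure D4:**
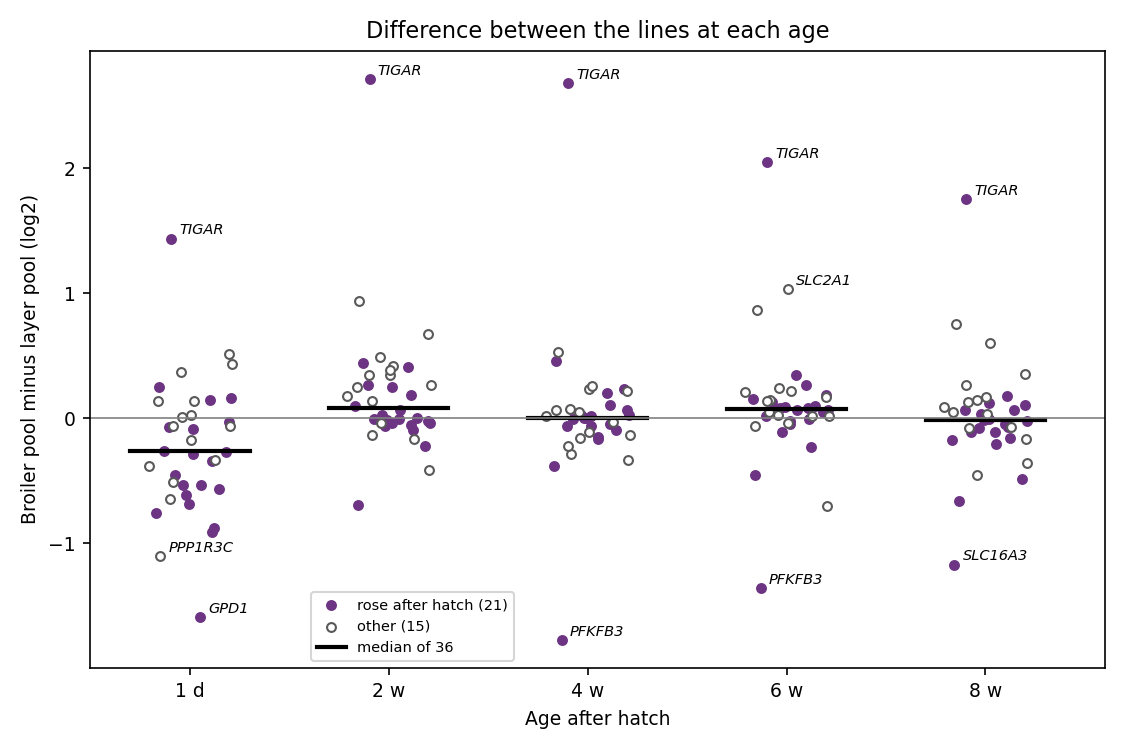
Difference between the broiler and the layer pool (log2, vertical axis) of each of the 36 genes at each age, filled for the 21 genes that rose after hatch and open for the other 15, with the median of the 36 as a bar. The median lies at -0.27 at 1 d and between -0.01 and 0.08 at the later ages, and genes more than 1 from 0 are named.

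The median difference between the lines was farthest from 0 at 1 d. There the median of the 36 genes was -0.27, against 0.02 over all probe sets, and the medians from 2 w to 8 w were 0.08, 0.00, 0.07 and -0.01. Over all probe sets these later medians were 0.014, -0.004, -0.027 and 0.019. By direction, 11 of the 36 genes were higher in broilers at 1 d, beside 21094 of 38439 probe sets. At 6 w 26 of the 36 were, beside 16844 probe sets. At 1 d 8 genes were at least 1.5-fold higher in layers, a size reached by 2.97% of all probe sets, and 1 gene, TIGAR, was higher in broilers by that much, with 1.75% of all probe sets. The 8 genes were GPD1, PPP1R3C, FBP2, PHKG1, PHKA1, PGM1, GBE1 and LDHA, from 3.01-fold to 1.53-fold. Their 3 broiler arrays lay below the 3 layer arrays, but the genes were picked by this gap and the arrays are technical. Of the 8 genes, 6 were among those that rose after hatch.

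Most genes that rose were lower in broilers at 1 d. Of the 17 that rose at least 2-fold, 15 were lower in the broiler pool at 1 d, with a median difference of -0.53. Both the rise and this filter use the same pools at 1 d, so a low broiler pool there helps a gene to pass. LDHA, for instance, rose by 1.37 in broilers and by 0.79 in layers on the log2 scale. Of the 851 probe sets of the whole array that rose at least 2-fold, 57.5% were lower in the broiler pool at 1 d, with a median of -0.05. At 2 w the 17 genes had a median difference of -0.01, and 10 were lower in broilers. The rise was larger in broilers for 18 of the 21 genes that rose, with SLC16A3, PFKFB3 and PYGB as the others. This count uses the same pools at 1 d and is not a separate result. Over all probe sets that rose, the median rise was 0.39 in broilers and 0.41 in layers. All this rests on 1 pool of each line at 1 d, of which that of the layers had high cartilage genes, and the birds of a pool were not measured apart. The part of the cartilage genes in these differences was not tested.

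A test of the difference at 1 d against that at later ages takes its spread from the later pools. It called a downward shift in broilers at 1 d for 3 of the 36 genes, PPP1R3C, GPD1 and FBP2, and an upward shift for 0 (limma). Over all probe sets 0.193% were called down and 0.101% up. At an unadjusted p under 0.05 there were 16 of the 36 genes, or 44.4%, against 7.96% of all probe sets. The shift was -1.87 ± 0.24 for PPP1R3C (SE, adjusted p = 0.0151, limma), -1.61 ± 0.22 for GPD1 (adjusted p = 0.0238) and -1.05 ± 0.16 for FBP2 (adjusted p = 0.0349). TIGAR at -0.86 ± 0.37, GBE1 at -0.78 ± 0.26 and PHKG1 at -0.74 ± 0.15 did not pass the threshold (adjusted p = 0.610, 0.451 and 0.137, limma). Over the alternative settings adjusted p reached 0.114 for PPP1R3C, 0.204 for GPD1 and 0.108 for FBP2, while the shift of each stayed below 0. Of 20 settings the call was lost in 12 for FBP2, 8 for GPD1 and 6 for PPP1R3C, and over the mean of its probe sets PPP1R3C stood at -1.05.

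PPP1R3C, a subunit that brings protein phosphatase to glycogen and favours its synthesis, crossed over between the lines. In broilers it stood at 7.01, 7.86, 8.66, 7.62 and 9.04 from 1 d to 8 w, and in layers at 8.11, 6.92, 8.13, 6.75 and 8.28. It was thus 2.15-fold higher in layers at 1 d and higher in broilers at each later age, by 1.92-fold, 1.44-fold, 1.83-fold and 1.69-fold. At 6 w its arrays overlapped, with 6.97, 7.68 and 8.20 in broilers and 7.02, 7.20 and 6.02 in layers. Without the low layer array the difference at 6 w was 1.42-fold, and without array number 3 of both pools it was 1.16-fold. A second PPP1R3C probe set shifted by -1.84 (adjusted p = 0.0304, limma). The dimmer probe sets of the gene, with means of 5.59 and 2.83, shifted by -0.29 and -0.21 and were not called (adjusted p = 0.80 and 0.79, limma). Over the mean of all its probe sets the call was lost (-1.05, adjusted p = 0.114, limma).

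From 2 w on few genes differed by 1.5-fold between the pools of an age. At 2 w TIGAR, PPP1R3C and SLC16A1 were higher in broilers (3 genes, against 1.5% of all probe sets) and SLC16A3 in layers (1 gene, against 2.12%). At 4 w TIGAR was higher in broilers (1 gene, against 2.22%) and PFKFB3 in layers (1 gene, against 2.12%). At 6 w TIGAR, SLC2A1 and PPP1R3C were higher in broilers (3 genes, against 2.58%) and PFKFB3 and UGP2 in layers (2 genes, against 1.89%). At 8 w TIGAR, PPP1R3C and PFKP were higher in broilers (3 genes, against 1.4%) and SLC16A3 and PFKFB3 in layers (2 genes, against 2.35%). By a check chosen after the data were seen, leaving out 1 array of either pool at a time, 19 of the 25 differences of that size over the 5 ages stayed past 1.5-fold. The other 6 were LDHA and GBE1 at 1 d, SLC16A1 at 2 w, PPP1R3C at 6 w, and PFKP and PFKFB3 at 8 w, which went as low as 1.32-fold, 1.41-fold, 1.47-fold, 1.42-fold, 1.41-fold and 1.26-fold.

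PFKFB3 moved from age to age. In broilers it stood at 5.34 at 1 d, 6.31 at 2 w, 6.06 at 4 w, 5.69 at 6 w and 7.69 ± 0.57 (SD, 3 arrays) at 8 w. In layers it stood at 5.60, 5.87, 7.84, 7.05 and 8.35 at these ages. Layers were thus high from 4 w on and broilers at 8 w alone, and the largest gap, at 4 w, was 3.42-fold. The layer pool of that age had the highest mean of the slow muscle genes among the later pools, and that at 6 w came next. The part of the slow muscle genes in the gaps at 4 w and 6 w was not tested.

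SLC16A3 also changed places between ages. It stood at 5.29, 6.33, 6.58, 5.89 and 5.38 in broilers and at 5.04, 7.02, 6.13, 6.34 and 6.55 in layers. Broilers were higher at 1 d and 4 w and layers at the other ages, by 2.25-fold at 8 w, where the broiler signal was back near that of 1 d. SLC2A1 was 2.04-fold higher in broilers at 6 w, at 6.80 against 5.77.

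Of 62 further genes of these pathways 40 had a probe set, among them PKLR, given above as a synonym match. Of the 40, 10 rose after hatch, PKLR included, and 11 fell (limma). Beside them stood 17.1% and 17.9% of all probe sets, and 22.7% and 26.8% of those at or above the median brightness. PRKAG3, the muscle gamma subunit of AMP-activated kinase, rose by 2.36 ± 0.12 (SE, adjusted p = 1.59e-06, limma). PDP1, the phosphatase that switches pyruvate dehydrogenase on, rose by 1.98 ± 0.20 (adjusted p = 9.58e-05), and SLC2A12, a glucose transporter, by 1.82 ± 0.12 (adjusted p = 6.92e-06). Kinases that switch pyruvate dehydrogenase off fell, PDK4, which lay between 5.35 and 11.05 in the later pools, by 3.17 (SE 1.00, adjusted p = 0.0358) and PDK1 by 1.22 on the log2 scale (SE 0.14, adjusted p = 0.000208). PDK3, another such kinase, also fell by 0.53 (SE 0.11, adjusted p = 0.00569).

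SLC16A7, a monocarboxylate carrier, fell by 3.01 on the log2 scale (SE 0.17, adjusted p = 3.10e-06, limma). PPARGC1A, the coactivator known for mitochondrial genes and slow fibres, fell by 2.79 (SE 0.17, adjusted p = 5.87e-06), and HIF1A, the hypoxia-inducible factor, by 0.80 (SE 0.13, adjusted p = 0.00134). PDP1 went on rising from 2 w to 8 w, by 0.28 ± 0.04 per week on the log2 scale (SE, adjusted p = 0.0250, limma), and was the 1 gene of the 40 called in that comparison. By limma 0 of the 40 were called between the lines and 0 at 1 d against later ages. At an unadjusted p under 0.05 (limma) there were 12 and 3 of the 40, against 14.3% and 7.96% of all probe sets.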

How the data were processed

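Per the labels, the RNA of 5 males made up the pool of a line and age, and every pool was read on 3 arrays. The log2 signals were made by the authors with RMA, and MAS5 gave present calls, which were left aside (versions not given in the sources used here). The deposited log2 values are uncentred, with array medians from 4.08 to 4.19. Of 38535 probe sets 96 controls were left out, among them control probe sets for GAPDH. Platform symbols were used, with gene identifiers and synonyms from a RefSeq table.

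Since the arrays of a pool are technical, their mean was the unit, and the 10 means entered a limma model (limma 3.58.1, R 4.3.3) with terms for age and line, which left 4 residual degrees of freedom. The eBayes step used an intensity trend, and p-values were adjusted by Benjamini-Hochberg over all probe sets. A further term tested the line at 1 d. The fits were tested on simulated data. The number of pools limits the precision. Members and lists were chosen with earlier results of these data known. Statistics are given for members past an adjusted p of 0.05, or else for the 6 largest differences, and for at most 10 further pathway genes a comparison. Alternatives covered the unit of replication, normalization, filters, the variance prior, the probe set of a gene and samples left out. Sequences were not used here.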

Additional observations from a re-analysis of the deposited data

Results flagged for a closer look

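For 3 genes the difference between the lines at 1 d was not the same as at later ages by the test of that difference (limma). The shift, broiler minus layer, was -1.05 for FBP2 (adjusted p = 0.0349), -1.87 for PPP1R3C (adjusted p = 0.0151) and -1.61 for GPD1 (adjusted p = 0.0238). Over 20 alternative settings the call was lost in 12 for FBP2, 6 for PPP1R3C and 8 for GPD1. Each line had 1 pool at 1 d, so the spread between pools at that age was not measured.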

How the results depend on the processing

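Of 1136 values of named genes and of medians of the tested comparisons under the alternatives, 1056 kept their direction and their side of the threshold. Of the others 48 lost the threshold, 28 gained it and 4 changed sign. The median gaps at single ages, given below, are not among these values. With the arrays kept apart and the pool as a random block, 4 genes were called higher in broilers and 3 lower. Over all probe sets these shares were 4.19% and 4.66%. From 2 w to 8 w 1 gene rose and 1 fell (2.09% and 2.01%). A downward shift of the line difference at 1 d against later ages was called for 12 genes (1.4%). With the array number as a replicate block besides, these counts were 3, 3, 1, 2 and 12 (4.27%, 4.82%, 2.13%, 2.03% and 1.48%). With 30 independent arrays they were 5, 3, 2, 2 and 12 (4.91%, 5.48%, 2.61%, 2.53% and 1.52%). The numbers mark technical arrays. Deviations of arrays of the same number correlated over 0.1 in 18, 22 and 36 of 45 pairs for the numbers 1, 2 and 3. Of 30 arrays 23 correlated best with their own number, so arrays of a number shared part of their deviation across pools. Why they did was not tested. Without the age term 0 genes were called higher in broilers, beside 0.0286% of all probe sets. By the methods' analysis of variance 1 was lower, and the share of all probe sets for it is not given here. Downward shifts at 1 d against later ages were called for 0 genes without dim probe sets (fewer tested, 0.0312% of them). Without the intensity trend there was 1 (0.0806%). They numbered 0 to 2 without an array number (0.135% to 0.161%) and 0 to 2 without a later pool (0.0989% to 0.19%). Without either pool at 8 w there were 0. Genes that fell after hatch numbered 7 to 9 without an array number (15.1% to 17.5% of all probe sets). Without a pool they numbered 4 to 9 (12.4% to 17.8%). Genes higher in broilers numbered 1 to 2 without a pool (0.143% to 0.95%), with 2 without either pool at 1 d. The mean of all probe sets turned PYGB to -0.01. Without a pool, the median of the 36 between the lines ranged from -0.098 to 0.016, the latter without either pool at 1 d, and the median slope per week from -0.017 to 0.0059, the latter without the broiler pool at 2 w. Median gaps near 0 moved: at 4 w to -0.013 (all probe sets) and from -0.014 to -0.0028 without an array number, at 8 w to -0.047 (arrays centred), 0.013 (quantile) and 0.023 (all probe sets), and at 2 w from 0.028 to 0.105 without an array number. At 1 d the median gap ranged from -0.323 to -0.136 over 6 settings, and at 6 w from 0.010 to 0.102. The cause of these shifts was not tested. The 10 pools, with 1 per line and age, limit every comparison.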
